A study of Mus musculus with 14 samples.

Results

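The genes described are 49 developmental homeobox genes that lie outside the Hox clusters, out of 21887 protein-coding genes of the mouse (GRCm38, mm10). They were taken as a list of names from 15 families: Dlx, the sine oculis relatives (Six2, Six3 and Six6), Lhx, Nkx2, Nkx6, Irx, Gbx, En, Emx, Barhl, Msx, Alx, Pitx, Gsx and Vax. All 49 were found in the annotation, and each was given the peaks that lay inside it or within 5 kb of either end, from 9 lists of methylated histone and 1 list of Mll1. Homeobox genes encode transcription factors with a DNA-binding homeodomain, and these families pattern the forebrain, eye, neural tube, heart, gut and limbs. Most are silent in embryonic stem cells, where the starts of silent developmental regulators often carry trimethylated lysine 4 of histone H3 (H3K4me3) together with the repressive mark H3K27me3, which was not measured here. H3K4me1 is best known from enhancers and from the sides of active starts, H3K4me2 is found at both kinds of place, and Mll1 (Kmt2a) is an enzyme that methylates this lysine.

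The cells were C57BL/6J embryonic stem cells derived from blastocysts, Mll1fl/fl with Cre-ER TM, a recombinase that tamoxifen activates. All groups shared this genotype and were kept without feeder cells on Matrigel, with LIF, 5% serum and 15% serum replacement. The 2 treated groups had 100 µM of the MLL1 inhibitor MM-401, or 5 µM of 4-hydroxytamoxifen (4-OHT) to delete Mll1, for 9 days and 3 passages, and the third group was untreated. Each mark was mapped once in each group and Mll1 once, in untreated cells, so the 10 precipitated libraries have no replicates, no test was possible, and a difference can be set only against counting error and against the same value over all genes. Both treatments were compared with the same untreated library. There is no map of Mll1 in 4-OHT cells, and the deletion is known here only from the label.

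Levels are given as tags per 1000000 filtered tags (tags per M), summed over the peaks of a gene, and as tags per M per kb of peak where genes are compared. Filtered tags came to 22.2, 19.8 and 12.9 M for H3K4me1, H3K4me2 and H3K4me3 in MM-401 cells, 61.8, 48.6 and 26.4 M in 4-OHT cells, and 36.9, 40.1 and 25.3 M in untreated cells. The MM-401 libraries were therefore the shallowest, and per the file headers they were also processed in a folder of their own, so depth, processing and inhibitor cannot be told apart. The 4-OHT libraries of H3K4me1 and H3K4me2 were deeper than the untreated ones, so depth and 4-OHT cannot be told apart there either. The inputs of the marks held 12.2 M filtered tags in MM-401, 55.0 M in 4-OHT and 36.6 M in untreated cells. Input depth thus differed between the conditions for every mark, H3K4me3 included, and its part in the peak lists was not tested. Fragment sizes per the headers were 208, 238 and 293 bp for H3K4me1, H3K4me2 and H3K4me3 in MM-401 cells. They were 194, 179 and 186 bp in 4-OHT and 190, 197 and 184 bp in untreated cells. Their part in peak widths and tags per kb was not tested. All 10 embryonic stem cell markers had H3K4me3 in all 3 conditions, with a median of 203 tags per M in MM-401, 215 in 4-OHT and 153 in untreated cells. Of 8 fibroblast markers 4 had it in each condition, with medians of 10.1, 14.8 and 14.2 tags per M in the same order, and Col3a1, Dcn, Lum and Postn had none in any. Primitive endoderm markers had it at 5, 6 and 6 of 6 genes and trophectoderm markers at 5, 6 and 6 of 6, in the same order, and the part of such cells in the results was not tested.

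The promoters of 4 members are printed because the results turn on them: Irx2 had the highest ratio of H3K4me1 and a start free of that mark, Nkx2-2 the highest ratio of H3K4me2 after MM-401 and an Mll1 peak, Gsx2 a distal H3K4me3 peak that crossed the border of its window in untreated cells and not in treated ones, and Lhx8 the fewest CpG dinucleotides. They are from RefSeq on GRCm38.p6 and hold the 250 bases before an annotated start, read 5′ to 3′ along the gene, with CpG in capitals. The positions are chr13:72628570-72628819 on the + strand for Irx2, chr2:147186403-147186652 on the - strand for Nkx2-2, chr5:75075351-75075600 on the + strand for Gsx2 and chr3:154330561-154330810 on the - strand for Lhx8.
Irx2: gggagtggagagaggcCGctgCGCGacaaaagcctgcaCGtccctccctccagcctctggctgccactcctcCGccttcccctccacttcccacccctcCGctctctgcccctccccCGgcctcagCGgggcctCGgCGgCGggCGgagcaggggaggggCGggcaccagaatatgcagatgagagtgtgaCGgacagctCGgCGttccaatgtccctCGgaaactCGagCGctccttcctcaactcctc
Nkx2-2: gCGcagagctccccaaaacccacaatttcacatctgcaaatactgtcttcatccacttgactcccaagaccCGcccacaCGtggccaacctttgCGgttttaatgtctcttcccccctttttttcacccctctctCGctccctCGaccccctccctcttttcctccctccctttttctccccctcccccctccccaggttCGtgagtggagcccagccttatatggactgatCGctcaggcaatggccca
Gsx2: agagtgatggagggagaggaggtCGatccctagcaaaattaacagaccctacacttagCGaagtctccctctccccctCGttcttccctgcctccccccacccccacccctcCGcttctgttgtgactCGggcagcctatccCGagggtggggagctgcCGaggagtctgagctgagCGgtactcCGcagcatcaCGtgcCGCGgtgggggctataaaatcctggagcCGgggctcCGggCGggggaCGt
Lhx8: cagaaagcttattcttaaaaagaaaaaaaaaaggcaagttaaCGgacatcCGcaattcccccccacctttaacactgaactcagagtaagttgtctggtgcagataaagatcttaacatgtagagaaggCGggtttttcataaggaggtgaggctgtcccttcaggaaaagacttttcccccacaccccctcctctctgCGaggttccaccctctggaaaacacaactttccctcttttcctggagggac
These stretches hold 19, 8, 16 and 4 CpG, in the order printed.

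The promoter table held 39 starts of 34 members, each as 300 bases, 250 before the start and 50 after it. A median of 20 CpG stood in these 300 bases, against 13 over 21263 promoters of all genes and 14.5 over 24 promoters of Hox genes. The range ran from 4 at Lhx8, a regulator of cholinergic neurons, to 42 at Barhl2, a regulator of neural fates. The GC content had a median of 63.0% against 56.3% over all promoters. The motif TATAAA, searched on both strands, stood in 3 of the 39 promoters (7.69%; Gsx2, Lhx3 and Lhx6) and in 12.6% of all promoters of this length. TAATTA, a core that many homeodomains bind and that reads the same on both strands, stood in 3 (7.69%; Barhl1, Emx2 and Msx2) against 4.53%. The Gsx2 promoter printed above thus carries both CpG and a TATAAA, in its last stretch before the start.

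In all 3 conditions all 49 members had at least 1 peak of H3K4me1, of H3K4me2 and of H3K4me3, while of all genes 77.4%, 78.4% and 74.5% did in MM-401 cells, 81.8%, 81.4% and 77.8% in 4-OHT cells and 80.8%, 81.0% and 77.9% in untreated cells. So had all 39 Hox genes, and all of 51 further homeobox genes outside the members and the Hox clusters, apart from 1 that lacked H3K4me1 in MM-401 cells, so that this is not particular to the members. Over all genes, 4.57%, 3.41% and 4.49% of those with an untreated peak had none after MM-401, and 0.667%, 0.609% and 0.926% had none after 4-OHT. The marks were spread over several peaks at most members: 186, 167 and 178 distinct untreated peaks of H3K4me1, H3K4me2 and H3K4me3 fell to the 49 genes, from 1 to 8 a gene for the first pair of marks and from 1 to 7 for H3K4me3. The median was 4 peaks of H3K4me3 a member against 2 over all genes. It was 3 over the Hox genes and 3 over the 51 further homeobox genes.

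The widest H3K4me3 peak of a member was wider in the median than that of all genes, and the members' peaks held fewer tags per kb. The members' median untreated H3K4me3 density was 6.73 tags per M per kb, against 10.7 over all genes with a peak. This median was 6.81 over the Hox genes, 7.32 over the 51 further homeobox genes, 13.4 over the embryonic stem cell markers and 16.1 over housekeeping genes. In density 47 of the 49 lay below the median of all genes, and the exceptions were Pitx3, a regulator of dopamine neurons and lens whose window also holds Elovl3 and Gbf1, with 15.2, and Six6, an eye regulator, with 11.2. The lowest was Barhl1 with 3.51 tags per M per kb. H3K4me1 and H3K4me2 were closer to other genes in density, with medians of 2.08 against 2.05 and of 4.93 against 4.47. Below the median of all genes lay 22 of the 49 members for H3K4me1 and 14 for H3K4me2, so most members lay above it for H3K4me2. The widest peak of a member had a median of 3445 bp for H3K4me3 against 2850 bp over all genes, 4612 against 3669 bp for H3K4me2, and 4837 against 3741 bp for H3K4me1. For H3K4me3 this median was 3307 bp over the Hox genes and 2792 bp over the 51 further homeobox genes. It was larger than that of the members at embryonic stem cell markers (7429 bp) and housekeeping genes (5544 bp).

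**Figure D1:**
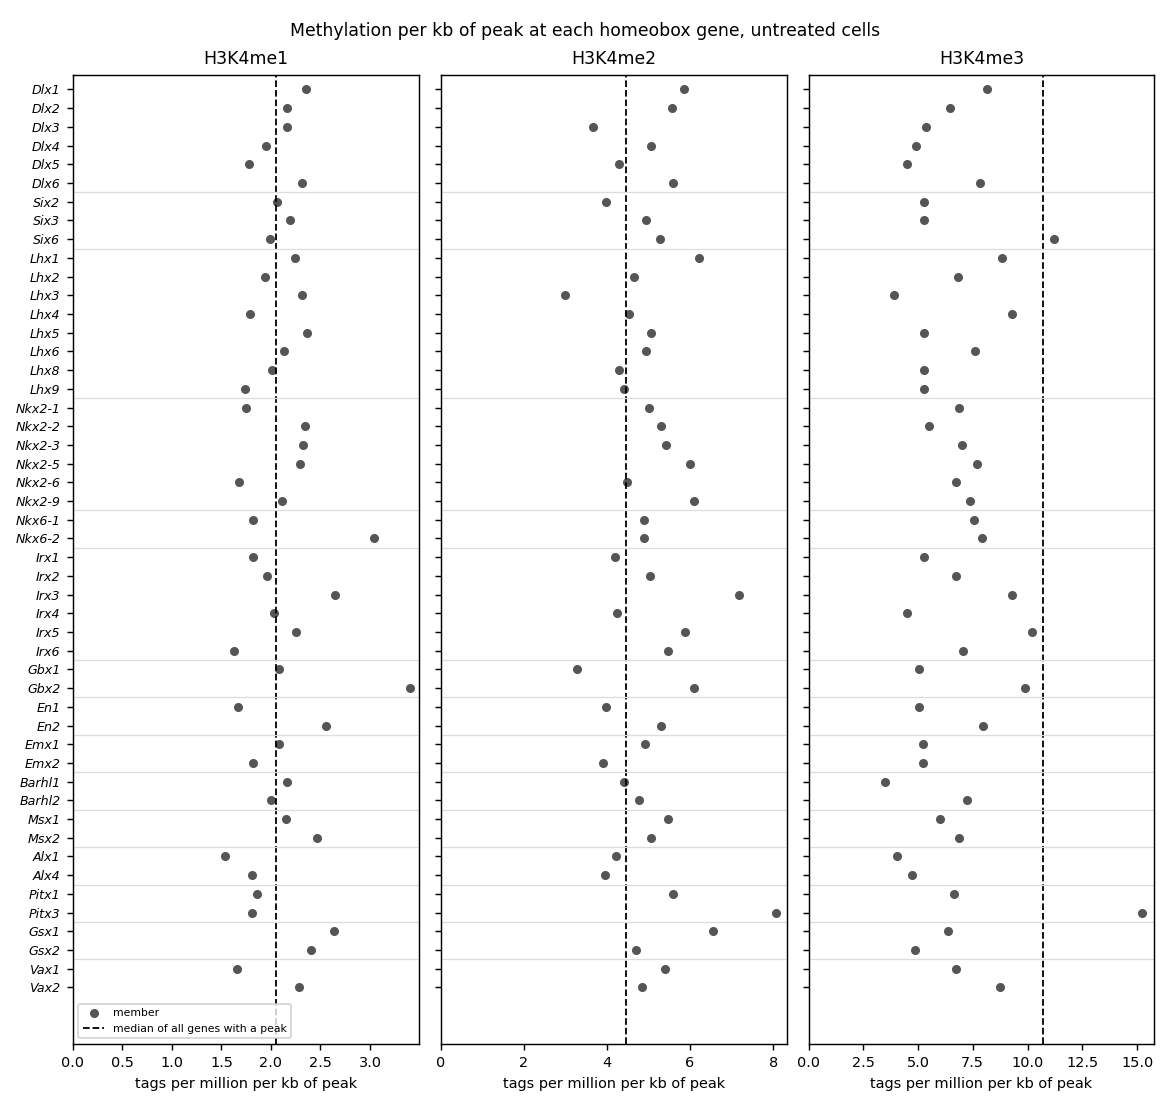
Tags per M per kb of peak at each of the 49 homeobox genes in untreated cells, 1 point a gene, grouped by family between grey lines; the dashed line is the median of all genes with a peak. For H3K4me3, 47 of 49 points lie left of that line and Pitx3, at 15.2, stands furthest right; for H3K4me1 22 do.

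The same low density held in the treated libraries. Median H3K4me3 density over the members was 6.50 tags per M per kb in MM-401 cells and 6.54 in 4-OHT cells, while all genes had 13.2 and 9.84. Members below the median of all genes numbered 47 of 49 in MM-401 and 46 of 49 in 4-OHT cells. Of the 39 annotated starts, 36, 37 and 37 lay under an H3K4me3 peak in MM-401, 4-OHT and untreated cells. The same share was not taken over the starts of all genes.

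By family, the Irx genes, which pattern the neural plate and the heart and stand in clusters on chromosomes 13 and 8, ranged from 4.49 tags per M per kb of untreated H3K4me3 at Irx4 to 10.2 at Irx5. The Dlx genes of jaw, limb and forebrain interneurons ranged from 4.49 at Dlx5 to 8.16 at Dlx1. The LIM homeobox genes ranged from 3.92 at Lhx3, which acts in the pituitary and motor neurons, to 9.29 at Lhx4, its close relative. The Nkx2 genes lay closer together, from 5.51 at Nkx2-2, a regulator of the ventral neural tube and pancreas, to 7.67 at Nkx2-5, a cardiac regulator. Of these 4 families, Irx spanned the widest range and Nkx2 the narrowest.

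The widest untreated H3K4me3 peaks were those of Gsx1, Irx5, Gbx2, Irx2 and Nkx2-1. The peak of Gsx1, which acts in the ventral forebrain, measured 5806 bp in MM-401, 7247 bp in 4-OHT and 7291 bp in untreated cells. That of Irx5 measured 7478, 6901 and 7146 bp in the same order, and that of Gbx2, which acts at the midbrain-hindbrain border and is also expressed in mouse embryonic stem cells, 6548, 8807 and 6847 bp. Irx2 had 5763, 5484 and 5427 bp and Nkx2-1, a regulator of thyroid, lung and ventral forebrain, 5442, 5202 and 5269 bp. At these 5 genes no treated peak differed from the untreated one by 1.5 times.
The widest H3K4me2 peak, at Gbx2, measured 15032 bp in MM-401, 15540 bp in 4-OHT and 12007 bp in untreated cells. Nkx6-2, which acts in the ventral neural tube, came next with 8989, 11171 and 11202 bp. It was followed by the peak that Dlx1 and Dlx2 shared in untreated cells (9503 bp), and by Nkx2-2 with 11521, 9818 and 9397 bp. The widest H3K4me1 peaks were at Msx1, which acts in limb and tooth (8788, 11369 and 10962 bp), Vax2, which acts in the ventral eye (9327, 7987 and 10143 bp), Dlx1 with Dlx2 (9798, 9755 and 9410 bp) and Gbx2 (8866, 9405 and 8975 bp).

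Mll1 was called at 8 of the 49 members (16.3%), against 13.0% of all genes and 8 of 39 Hox genes (20.5%). The 8 were Dlx1, Nkx2-2, Nkx2-3, Nkx2-5, Irx1, Irx3, Gbx1 and Emx1, with 2 peaks at Nkx2-3, a regulator of gut and spleen. These 9 peaks were weak: they held 9 to 13 tags over 115 to 194 bp, with a score of 51.76 to 71.26, where the score is the negative log10 of the peak's p times 10 and the list starts at 50. Only 0.285% of the tags of the Mll1 library lay in its peaks, so an absent peak does not show absent Mll1, and no member had a peak with a score of 100 or more. All 9 lay on an untreated H3K4me1 peak, 8 on H3K4me2 and 6 on H3K4me3, and 6 lay inside the gene. These counts were not taken over the other Mll1 peaks, so they are not read as a trait of the members. At Nkx2-2 the peak of 9 tags lay 478 to 607 bp after the start whose promoter is printed above (chr2:147185795-147185924).

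The 8 members with an Mll1 peak had a median log2 ratio of H3K4me3 of -0.08 after MM-401, ranging from -0.34 to 0.17, and the other 41 had -0.14. After 4-OHT the medians were -0.06 and -0.03. For H3K4me1 the 8 and the 41 had 0.28 and 0.27 under MM-401, and -0.08 and 0.10 under 4-OHT. For H3K4me2 the values were 0.22 and 0.25 under MM-401, and -0.14 and -0.06 under 4-OHT.

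After MM-401 the members had more H3K4me1 and H3K4me2 and slightly less H3K4me3 per M filtered tags than in untreated cells. The median log2 ratio of tags per M was 0.27 for H3K4me1, 0.25 for H3K4me2 and -0.12 for H3K4me3, where all genes had -0.11, 0.08 and 0.09. The Hox genes had 0.31, 0.37 and -0.01 and the 51 further homeobox genes 0.16, 0.19 and -0.17, in the same order of marks. The 3 signs were the same relative to the all-gene median (0.38, 0.17 and -0.21) and per tags in peaks (0.40, 0.23 and -0.18). H3K4me1 was above untreated at 42 of 49 members against 37.4% of all genes, H3K4me2 at 44 against 64.3%, and H3K4me3 at 15 against 61.0%. The 95% counting interval of the ratio lay wholly above 0 at 33 members and wholly below it at 5 for H3K4me1, at 39 and 2 for H3K4me2, and at 2 and 23 for H3K4me3. This count was not taken over all genes, so it is not read as a trait of the members. Most ratios were small, and 1.5-fold was passed by 5 members upward (3.03% of all genes) and 1 downward (15.0%) for H3K4me1, by none for H3K4me2 (1.85% and 4.23%), and by 2 downward and none upward for H3K4me3 (8.08% and 1.43%).

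After 4-OHT the median log2 ratio of the members was 0.10 for H3K4me1, -0.07 for H3K4me2 and -0.04 for H3K4me3, with 0.16, 0.04 and 0.02 over all genes, so that relative to all genes H3K4me1 stood at -0.06. Above untreated stood 31, 18 and 19 of 49 members, against 69.6%, 59.4% and 54.8% of all genes. The counting interval lay wholly above 0 at 17 members and wholly below it at 9 for H3K4me1, at 4 and 18 for H3K4me2, and at 9 and 14 for H3K4me3, again without a count over all genes. No member passed 1.5-fold upward, against 14.0%, 3.98% and 2.65% of all genes, and downward none did for H3K4me1 (2.59%), 2 for H3K4me2 (1.55%; Dlx1 and Barhl2) and 1 for H3K4me3 (1.76%; Gsx2). All 3 of these came from a peak that lay across the border of the 5 kb window in untreated cells and outside it in 4-OHT cells. With the window widened to the outer edge of every peak that any of the 3 conditions had in it, no member passed 1.5-fold after 4-OHT for any mark, and the log2 ratios ran from -0.35 to 0.39 for H3K4me1, -0.23 to 0.13 for H3K4me2 and -0.26 to 0.43 for H3K4me3. In these wider windows 10.3%, 2.56% and 2.09% of all genes were higher and 2.42%, 1.35% and 1.63% lower by 1.5 times.

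**Figure D2:**
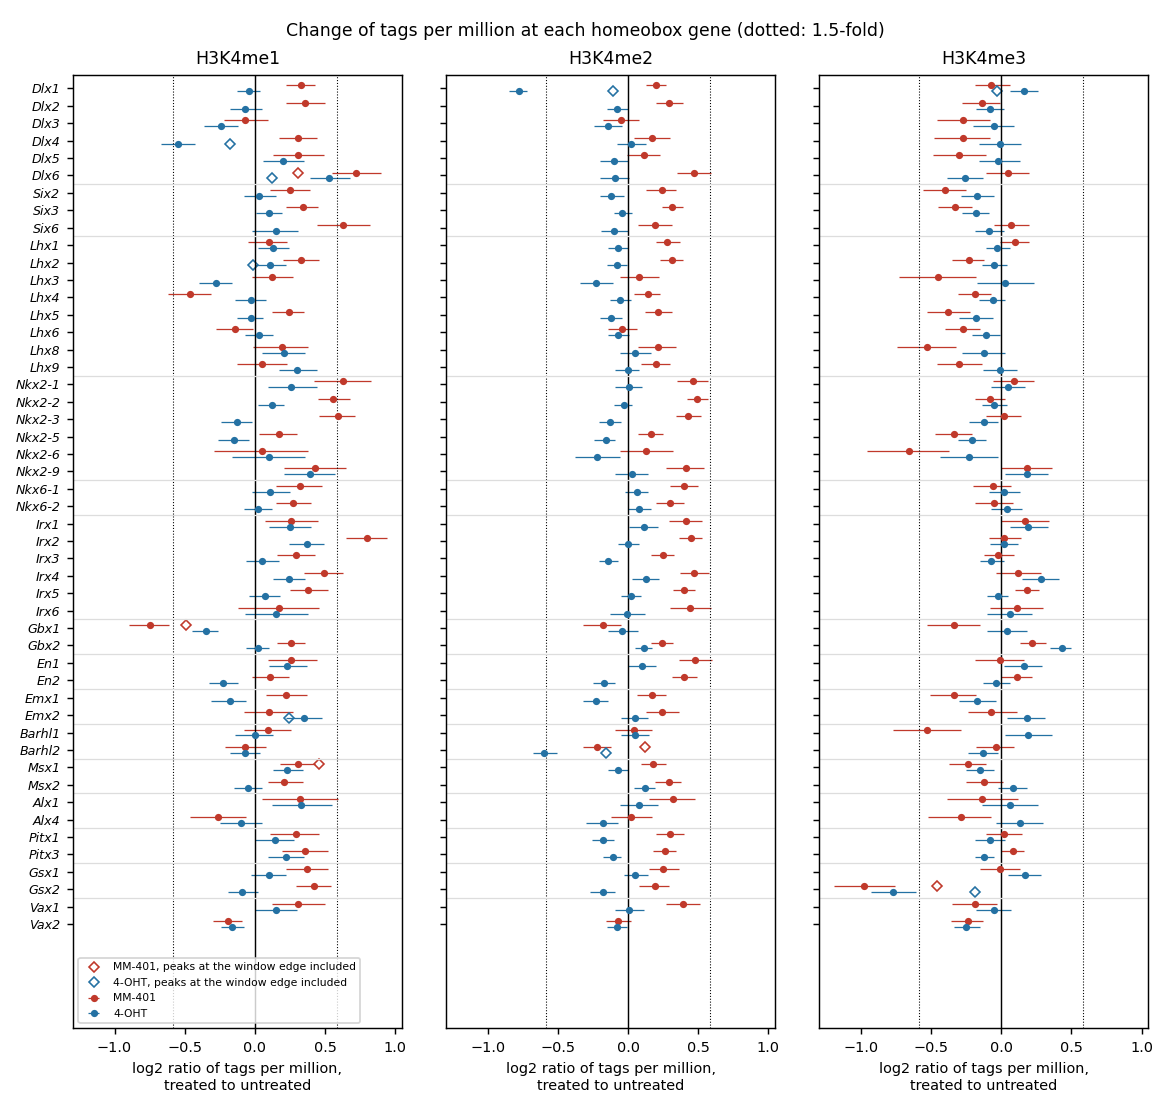
Log2 ratio of tags per M at each member, MM-401 (red) and 4-OHT (blue) against the same untreated library, with 95% counting intervals; dotted lines mark 1.5-fold and open diamonds the ratio with the window widened to whole peaks, where it moved by 0.1 or more. Red points lie mostly right of 0 for H3K4me1 and H3K4me2, blue points lie on both sides of 0, and the outlying points of Gsx2, Dlx1 and Barhl2 move inward once the window is widened.

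The H3K4me1 tags after MM-401 were highest relative to untreated cells at Irx2 (chr13:72624430-72634196), with 36.2 tags per M in MM-401 (95% interval 33.7 to 38.8), 26.8 in 4-OHT (25.6 to 28.2) and 20.8 in untreated cells (19.4 to 22.4). Both treated values lay above the untreated one beyond counting error, and the log2 ratio was 0.80 after MM-401 and 0.37 after 4-OHT. The widened window gave 0.80 as well. At the start of Irx2 the mark was missing in all 3 lists: the nearest peaks ended 205, 158 and 339 bp before it and began 259, 257 and 898 bp after it in MM-401, 4-OHT and untreated cells, so the printed 250 bases lay wholly in the gap in untreated cells and for the most part in it in treated cells. H3K4me3 covered the same start, in a peak of 5763, 5484 and 5427 bp, and its tags per M hardly differed, at 69.2, 69.0 and 68.1. Downstream of Irx2, 6494 to 12157 bp past the start, MM-401 cells had 1 H3K4me1 peak of 5664 bp and 4-OHT cells 1 of 5530 bp, where untreated cells had a pair of peaks of 1170 and 2916 bp.

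Another 3 members passed 1.5-fold for H3K4me1 after MM-401 in both windows, of 4 in the wider one (2.33% of all genes). Six6 had 19.5 tags per M in MM-401, 13.9 in 4-OHT and 12.6 in untreated cells (log2 ratio 0.63 after MM-401). Nkx2-1 had 17.5, 13.6 and 11.3 in the same order (0.63), and Nkx2-3 had 45.3, 27.6 and 30.2 (0.59). At Six6 and Nkx2-1 4-OHT cells lay between the others, and at Nkx2-3 they lay lowest. Nkx2-2 stood just under the threshold with 55.5, 40.7 and 37.6 tags per M (0.56), so the Nkx2 family had the highest median of all families, 0.50 over 6 genes. It was followed by Gsx with 0.39, Irx with 0.34, the 3 sine oculis relatives with 0.34, and Dlx with 0.32.
The fifth member, Dlx6, had 24.3, 21.2 and 14.7 tags per M of H3K4me1. A peak between Dlx6 and Dlx5 reached its window in both treated lists, while in untreated cells it was a separate peak of 4.85 tags per M that began 330 bp past the border. With it the ratio after MM-401 was 0.31 in place of 0.72, and after 4-OHT 0.12 in place of 0.53.

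H3K4me1 was lowest relative to untreated cells at Gbx1, Lhx4 and Alx4. Gbx1, a relative of Gbx2 that acts in the spinal cord and forebrain, had 24.7 tags per M in MM-401, 32.6 in 4-OHT and 41.6 in untreated cells. Its ratio after MM-401 was -0.75, and -0.49 with a peak of 4.91 tags per M that lay 1864 bp beyond the window in MM-401 cells. Lhx4 had 22.1, 29.7 and 30.4 tags per M (-0.46 after MM-401), and Alx4, which acts in craniofacial and limb bone, had 14.1, 15.7 and 16.8 (-0.26). In summed width their peaks also covered less in MM-401 cells, 8170 bp against 16958 bp at Lhx4. Per kb of peak all 49 members, these included, had more H3K4me1 in MM-401 than in untreated cells, as did 92.8% of all genes.

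For H3K4me2 after MM-401 the highest ratios belonged to Nkx2-2, En1 and Irx4. Nkx2-2 had 121 tags per M in MM-401 (116 to 126), 84.1 in 4-OHT and 86.0 in untreated cells (83.2 to 89.0), a log2 ratio of 0.49. En1, which maintains the midbrain-hindbrain region, had 51.5, 39.6 and 36.9 tags per M (0.48), and Irx4, a regulator of the cardiac ventricle, had 60.2, 47.3 and 43.4 (0.47). MM-401 cells were highest at all 3, and the ratios after 4-OHT were -0.03, 0.10 and 0.13. The family medians were 0.44 for En, 0.43 for Irx, 0.42 for Nkx2 and 0.35 for Nkx6, and -0.09 for Barhl. The lowest were Barhl2 with 58.5, 45.1 and 68.2 tags per M, Gbx1 with 31.1, 34.4 and 35.3, and Vax2 with 74.2, 73.5 and 77.7 (-0.22, -0.18 and -0.07 after MM-401).
A distal peak set the value of Barhl2 (chr5:106452523-106458166). In the treated lists it began 94 bp (MM-401, 15.8 tags per M) and 74 bp (4-OHT, 16.1) beyond the window, and in untreated cells it was a peak of 4608 bp that crossed the border. With it the ratio of Barhl2 was 0.12 after MM-401 and -0.16 in place of -0.60 after 4-OHT. Barhl1 stood at 0.04 after MM-401 in the widened window, so the negative family median of Barhl given above came from this peak.

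The other H3K4me2 call after 4-OHT was Dlx1 (chr2:71528113-71533981), with 128 tags per M in MM-401, 64.8 in 4-OHT and 111 in untreated cells. Dlx1 and Dlx2 lie side by side and regulate forebrain interneurons, and their windows share a peak in each of the 9 lists of a mark. The untreated peak of 9503 bp that reached from Dlx2 into the window of Dlx1 was called as separate peaks in 4-OHT cells, the nearer of which was counted and the other, of 5420 bp and 38.7 tags per M, lay 3320 bp beyond the window. With that peak Dlx1 had 103 tags per M in 4-OHT cells and a ratio of -0.11 in place of -0.78. The highest ratios after 4-OHT were 0.13 at Irx4, 0.12 at Msx2, with 63.2 in 4-OHT and 58.3 tags per M in untreated cells, and 0.11 at Irx1. The lowest besides Dlx1 and Barhl2 was Emx1, which patterns the cortex, with 40.7 in 4-OHT and 47.8 in untreated cells (-0.23).

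Gsx2 (chr5:75075601-75077893), which specifies the lateral ganglionic eminence of the forebrain, had the lowest H3K4me3 ratio under both treatments in the 5 kb window, and under neither in the widened one. It had 17.4 tags per M in MM-401 (15.2 to 19.8), 20.1 in 4-OHT (18.4 to 21.8) and 34.2 in untreated cells (32.0 to 36.6). Its log2 ratios were -0.98 and -0.77. The peak over the start held 12.8, 14.6 and 16.0 tags per M in that order. The larger part of the difference lay in a distal peak, 7155 to 10599 bp past the start in untreated cells, which held 12.0 tags per M and crossed the border of the window. In MM-401 and 4-OHT cells this peak was narrower (2688 and 2563 bp against 3445 bp), held 7.43 and 10.0 tags per M and began 817 and 701 bp beyond the border. With it Gsx2 had 24.8, 30.1 and 34.2 tags per M and ratios of -0.46 with MM-401 and -0.19 with 4-OHT, where Nkx2-6 (-0.66) and Dlx6 (-0.26) were lowest. H3K4me1 and H3K4me2 covered the same distal place in all 3 conditions, with peaks of 6040, 6161 and 6100 bp and of 4521, 4243 and 4230 bp in MM-401, 4-OHT and untreated cells.

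**Figure D3:**
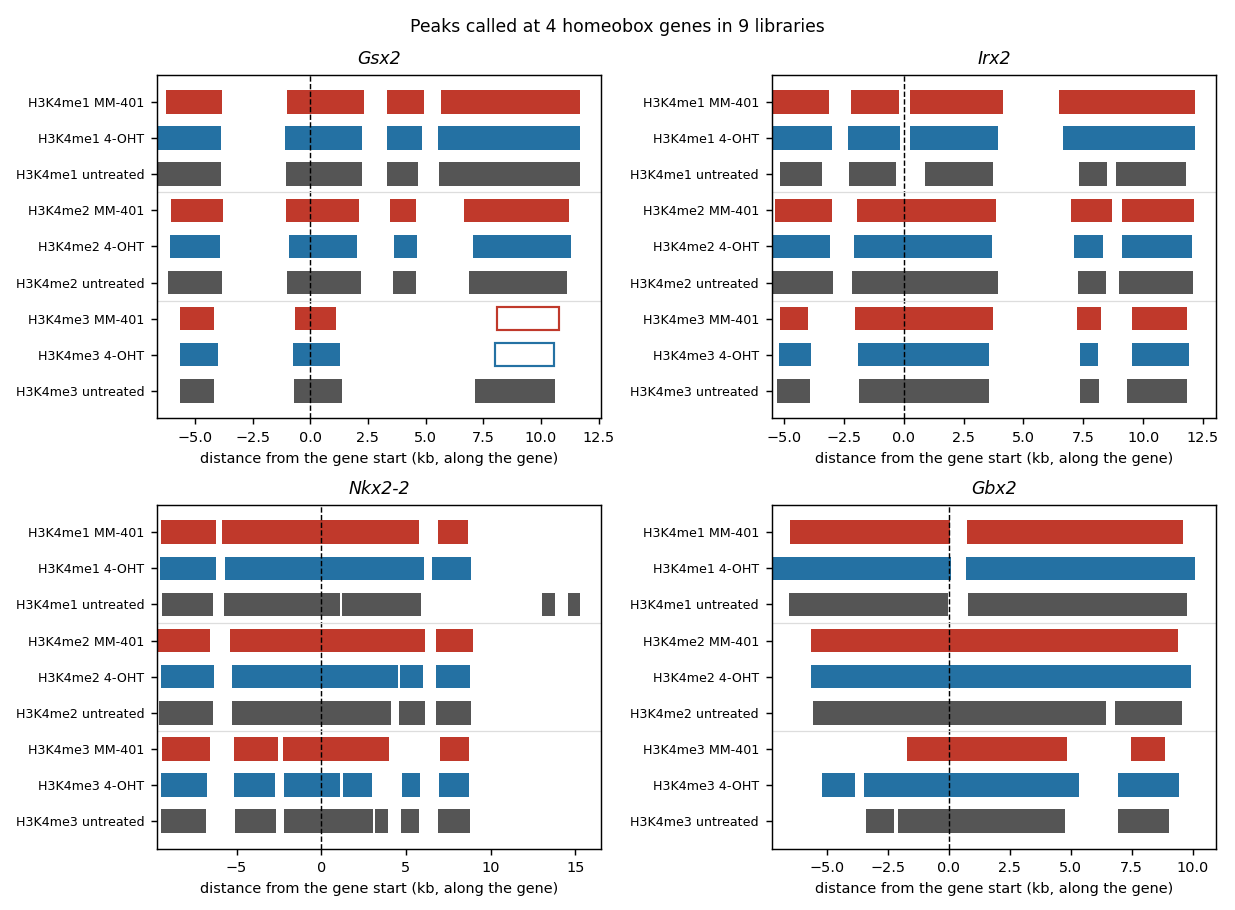
Peaks of the 3 marks at Gsx2, Irx2, Nkx2-2 and Gbx2, in kb from the annotated start along the gene; rows run through MM-401 (red), 4-OHT (blue) and untreated cells (grey) for each mark, and open boxes are peaks just outside the 5 kb window. At Gsx2 the distal H3K4me3 peak is an open box in both treatments, 817 and 701 bp beyond the window; at Irx2 no H3K4me1 peak covers the start.

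Nkx2-6 (chr14:69171802-69175540), which acts in the pharyngeal region, and Lhx8 had the next lowest H3K4me3 ratios after MM-401. Nkx2-6 had 9.83 tags per M in MM-401 (8.19 to 11.7), 13.2 in 4-OHT and 15.5 in untreated cells (14.0 to 17.1), a ratio of -0.66 after MM-401 that the wider window did not alter. It was the member with the fewest H3K4me3 tags, 127 in the MM-401 library. Lhx8 had 19.3, 25.7 and 27.9 tags per M (-0.53), and Barhl1 had 15.3, 25.3 and 22.1 (-0.53). MM-401 cells were lowest at all 3 genes. The Lhx family as a whole was lower at 7 of 8 genes, with a median of -0.29, against -0.33 for the 3 sine oculis relatives, -0.20 for Dlx and 0.12 for Irx, where 5 of 6 genes were above untreated.

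H3K4me3 was higher after both treatments at Gbx2 (chr1:89927962-89931176), with 117 tags per M in MM-401 (111 to 123), 134 in 4-OHT (130 to 139) and 100 in untreated cells (96.1 to 104). Its log2 ratios of 0.22 and 0.43 were the highest of the 49 for this mark in both comparisons. In 4-OHT cells a peak was called at -5187 to -3862 bp from the start that the untreated list lacked, and the peak over the start was 8807 bp against 6847 bp. Irx5 had 129 in MM-401, 112 in 4-OHT and 114 tags per M in untreated cells, Nkx2-9 had 31.5, 31.5 and 27.8, and Irx4 had 38.2, 42.7 and 35.1, and at Irx5 the 4-OHT value lay below the untreated one. Irx1, which marks neural and lung territories, had 35.9, 36.5 and 31.9. After 4-OHT the lowest besides Gsx2 were Dlx6 with 32.6 in 4-OHT and 39.0 in untreated cells, and Vax2 with 65.9 and 78.1 (-0.26 and -0.25).

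The H3K4me3 ratios after MM-401 were also set beside those of genes of like untreated density. The density comes from the same untreated library as the lower term of the ratio, so a climb of the ratio with density is partly built in and is given as a description. When all genes were put into 5 classes of equal number by untreated tags per M per kb, 22 members fell into the lowest class and 23 into the next. In the lowest the median log2 ratio was -0.30 for the members and -0.40 for all genes, and in the next -0.05 and -0.08. Per kb of peak the log2 ratios in these classes were -0.05 for the members against -0.13 for all genes, and -0.06 against 0.16. All genes had a log2 ratio of tags per M of 0.26 in the highest class, which held no member. For H3K4me1 the medians over the classes were 0.22 to 0.33 for the members and -0.26 to 0.02 for all genes in tags per M, and closer together per kb of peak, at 0.26 to 0.40 and 0.16 to 0.33. For H3K4me2 they were 0.08 to 0.34 and -0.13 to 0.17 in tags per M, with 1 member in the lowest class, and 0.28 to 0.43 and 0.22 to 0.32 per kb. Whether members and other genes differ beyond the spread between libraries cannot be said from 1 library a group.

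**Figure D4:**
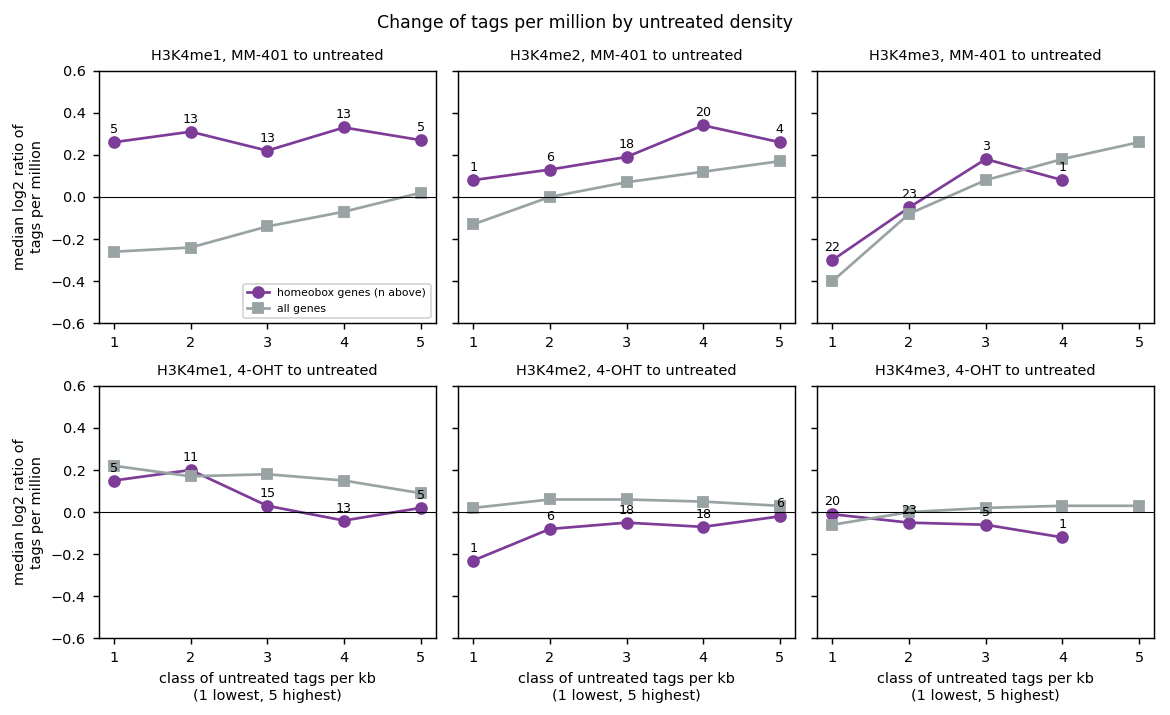
Median log2 ratio of tags per M in 5 classes of untreated tags per M per kb (1 lowest), for the homeobox genes (purple, number of genes above each point) and all genes (grey); top row MM-401, bottom row 4-OHT. The classes share the untreated library with the ratio. For H3K4me3 after MM-401 class 1 stands at -0.30 for the members and -0.40 for all genes, and for H3K4me1 the members' points lie at 0.22 to 0.33.

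A smaller share of the members' peaks than of all genes' peaks lacked a counterpart under MM-401. Of the 186 untreated H3K4me1 peaks at the members, 29 had no overlapping MM-401 peak (15.6%, interval 10.7 to 21.6), against 31.3% of the peaks at all genes. For H3K4me2 it was 19 of 167 (11.4%, 6.99 to 17.2) against 31.2%, and for H3K4me3 26 of 178 (14.6%, 9.77 to 20.7) against 34.1%. The members' untreated peaks with an MM-401 counterpart held medians of 220, 534.5 and 256 tags for the 3 marks, and those without one 63, 58 and 52.5. All peaks of the untreated lists held medians of 111, 133 and 98. These lists include peaks without a counterpart and peaks away from genes, so the sets are unlike. Peak size was not matched here or after 4-OHT, so the smaller shares are not read as a trait of the members. The H3K4me3 peaks without an MM-401 counterpart were small, with a median of 52.5 tags in the untreated library against 256 for those with one. The largest was a peak of 116 tags at Nkx2-5, 1380 bp wide (chr17:26835373-26836752), followed by 1 of 100 tags at Irx4 and 1 of 91 at Dlx3, which acts in skin and placenta.
After 4-OHT 7 of the untreated H3K4me1 peaks had no counterpart (3.76%, interval 1.53 to 7.60), against 7.83% at all genes. For H3K4me2 it was 4 (2.40%, 0.656 to 6.02) against 5.06%, and for H3K4me3 6 (3.37%, 1.25 to 7.19) against 6.18%, and both intervals hold the share at all genes. In the other direction, none of 142 H3K4me3 peaks of the members in MM-401 cells (interval 0 to 2.56%) and 6 of 176 in 4-OHT cells lacked an untreated counterpart, against 0.565% and 16.2% at all genes. For H3K4me2 it was 1 of 143 against 2.13% with MM-401 and 7 of 166 against 18.5% with 4-OHT, and for H3K4me1 4 of 154 against 2.85% and 10 of 170 against 15.8%. The largest of these peaks held 228 tags of H3K4me1 in 4-OHT cells, 6545 to 8863 bp past the start of Nkx2-2, where MM-401 cells also had a peak of 76 tags and untreated cells had H3K4me2 and H3K4me3 but no H3K4me1 peak.

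**Figure D5:**
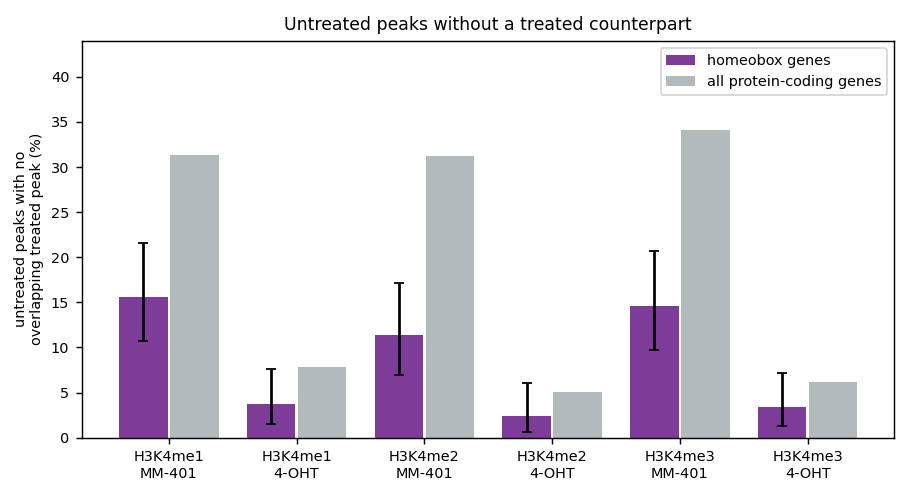
Share of untreated peaks with no overlapping peak in the treated list, for the homeobox genes (purple, with 95% Clopper-Pearson interval) and for all protein-coding genes (grey), by mark and treatment. The purple bars stand at 11.4% to 15.6% for MM-401 and 2.40% to 3.76% for 4-OHT, where the intervals of H3K4me2 and H3K4me3 reach the grey bars.

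The width of a member's widest peak also differed between lists, mostly without a 1.5-fold gain in summed width. Over the whole H3K4me3 lists the median peak width was 1891 bp in MM-401, 1343 bp in 4-OHT and 1305 bp in untreated cells. For H3K4me1 the widest peak was 1.5 times wider at 7 members after MM-401 (4.42% of all genes) and at 9 after 4-OHT (26.8%), and 1.5 times narrower at 3 (14.5%) and at none (1.78%). At Lhx8 the widest peak measured 7166 bp in MM-401, 7700 bp in 4-OHT and 3866 bp in untreated cells, and at Nkx6-2 12259, 11926 and 7061 bp. In untreated cells the start of Nkx6-2 lay under another peak, of 4645 bp. Over the 2 Nkx6 genes the median log2 ratio of summed H3K4me1 width was -0.03 after MM-401 and 0.06 after 4-OHT. At Irx4 the widest peak measured 3672, 8100 and 3722 bp, wide in 4-OHT cells alone. For H3K4me2 it was wider at 2 members after MM-401 (2.62%; Nkx6-1 and Irx5) and at none after 4-OHT (9.61%), and narrower at 2 (4.19%; Nkx2-5 and Vax2) and at 3 (1.11%; Dlx2, Dlx6 and Nkx2-5). For H3K4me3 the widest peak was 1.5 times wider after MM-401 at 5 members (2.33%; Lhx1, Nkx2-2, Nkx2-5, Nkx2-9 and Irx4) and narrower at 1 (1.22%; Gsx2), and after 4-OHT wider at 3 (5.55%; Nkx2-9, Irx3 and Emx2) and narrower at 1 (0.574%; Gsx2). Both counts of Gsx2 came from its distal peak, which lay outside the window in treated cells and measured 2688 bp in MM-401, 2563 bp in 4-OHT and 3445 bp in untreated cells, less than a 1.5-fold difference. At Nkx2-2, where the printed promoter lay under the peak, this was 6286 bp in MM-401, 3308 bp in 4-OHT and 3414 bp in untreated cells, while the H3K4me3 tags of the gene were 73.0, 74.5 and 77.1 per M. Summed over all its peaks, 1 member was 1.5 times wider for H3K4me1 after MM-401 (175 of 16886 genes) and 1 after 4-OHT (3487 of 17576). For H3K4me2 and H3K4me3 no member was. All genes had 131 of 17126 and 155 of 16290 after MM-401, and 1791 of 17622 and 1393 of 16898 after 4-OHT. Narrower for the 3 marks in order were 3, 1 and 3 members after MM-401 (4587, 2789 and 2095 genes) and 0, 1 and 1 after 4-OHT (287, 205 and 248).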

How the data were processed

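Chromatin immunoprecipitation was read as 10 peak lists, called against 4 inputs. Per the file headers the authors called peaks with MACS 1.4.2 in each library alone, with a p cutoff of 1e-05 and a band width of 300 bp; the submitters' processing notes name Bowtie2, SAMtools 1.5, MACS2 and mm10. The deposited counts are tags in a peak. Per the file headers the deposited score is 10 times the negative log10 of a peak's p. The deposited ratio (fold enrichment) and percent (false discovery rate) enter no result given here. The other deposited value is the peak's width.

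Peaks on the 19 autosomes, X and Y were assigned to a RefSeq gene when they overlapped it, widened by 5 kb at each end, by 1 bp or more. Tags were divided by the filtered tags of the library, and the log2 ratio was taken to untreated. Intervals are 95% Poisson or Clopper-Pearson and cover counting error only. Each group was 1 library, so nothing was tested across libraries, and no p-values were computed. A ratio of 1.5 was counted as past the threshold. Windows of 13 members hold another protein-coding gene, among them Dlx1, Gbx1, Gbx2, Nkx6-2, Barhl1, Vax2 and Pitx3; Dlx1 and Dlx2 share a peak in each list of a mark, and Dlx5 and Dlx6 share 1 of H3K4me1 in both treated lists. For each mark and treatment the 3 members with the highest and the 3 with the lowest ratio were named, with every member past 1.5-fold, every member with an Mll1 peak and the 5 with the widest untreated peak; genes named for unmatched peaks or widths were chosen after their values were seen. The members and lists were chosen with earlier results of these data known. The ratio script was checked on simulated data. Python 3.11.15, numpy 2.4.6, pandas 2.3.3, scipy 1.17.1 and matplotlib 3.10.9 were used.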

Additional observations from a re-analysis of the deposited data

How the results depend on the processing

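No paired analysis was possible because each group was 1 library without a replicate number. Of the summary values under the alternatives, 147 stayed within 1.5 times or within the spread over members, and 31 did not. With the median of all genes subtracted, the median log2 tags were 0.38 (H3K4me1) and 0.17 (H3K4me2) after MM-401 and -0.06 and -0.11 after 4-OHT, and the median log2 widths 0.07 (H3K4me1) and 0.01 (H3K4me3) after MM-401 and -0.17, -0.07 and -0.05 for the 3 marks after 4-OHT. Per tags in peaks, median log2 tags were 0.40 for H3K4me1 after MM-401, and -0.19 (H3K4me2) and -0.12 (H3K4me3) after 4-OHT. With peaks within 1 kb joined, the median log2 width of H3K4me1 after 4-OHT was 0.02. The medians of tags after MM-401 kept their sign under every alternative run; after 4-OHT that of H3K4me1 turned negative with the all-gene median subtracted (-0.06).

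Members past 1.5-fold after 4-OHT numbered, for H3K4me1, 4 with lists of equal number and 1 each with the median subtracted, per tags in peaks or with a score of at least 100 (0 as reported). For H3K4me2 they numbered 0 with 50% of the peak in the window, 0 in the widened window and 1 with joined peaks (2 as reported), and for H3K4me3 0 with 50%, within 1 kb and in the widened window (1 as reported). After MM-401 they numbered 4 for H3K4me2 within 1 kb (0 as reported), and for H3K4me3 1 with 50%, with lists of equal number, within 1 kb and in the widened window, and 4 with the median subtracted or a score of at least 100 (2 as reported). Members with an Mll1 peak numbered 0 at a score of at least 100 (8 as reported). The widened window was chosen after seeing the data. Where no reason is given in the text, the cause was not tested. Of the libraries of the marks MM-401 H3K4me3 was the shallowest, at 12.9 M filtered tags, and the Mll1 peaks at members held 9 to 13 tags each. Gsx2, the lowest member for H3K4me3 after both treatments, was the lowest after neither in the widened window (-0.46 and -0.19).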
